A study of Homo sapiens with 15 samples.

Results

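Immunoglobulin A, the lambda light chain and the J chain were followed through 7 genes in bone marrow of mice that carried MM.1S cells. MM.1S is a human multiple myeloma line described as of the immunoglobulin A lambda type. The 7 were the alpha heavy chain constant genes IGHA1 and IGHA2, the lambda constant genes IGLC2 and IGLC3, the lambda-like gene IGLL5, the J chain gene JCHAIN and the plasma cell secretory gene MZB1. They were listed by name, with no threshold on their values, among the 57773 genes of each count table, and all 7 were found. The data covered 15 libraries in 5 groups of 3, each library being the marrow of 1 mouse. JCHAIN and MZB1 were abundant in every library, whereas the alpha and lambda constant genes held at most 31 counts in any library. None of the 5 genes with enough counts to test passed the test in any of 9 comparisons between groups.

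All 5 groups were SCID-beige mice, a strain without working B and T cells whose marrow keeps its own red cell, myeloid and stromal cells. All had received MM.1S cells with green fluorescent protein and luciferase reporters by vein, so all tumours come from a single established line. Mice of the bortezomib group were given bortezomib, a proteasome inhibitor, at 0.25 mg/kg once a week into the peritoneum. Mice of the elesclomol group were given elesclomol, a copper ionophore, at 25 mg/kg under the skin. The combination group had both drugs from inclusion, and the delayed combination group had bortezomib with elesclomol added 14 days after inclusion. The PBS group had saline by vein once a week. Femurs were flushed when a mouse was paralysed, so the groups share that endpoint rather than a common day, and RNA came from the whole flushed marrow of tumour and host cells.

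Plasma cells secrete antibody as heavy and light chain pairs, and the J chain, a small protein, ties immunoglobulin A into dimers and immunoglobulin M into pentamers. MZB1 is a chaperone of the endoplasmic reticulum that helps these chains fold and the J chain join. A myeloma cell that makes whole antibody transcribes 1 rearranged heavy and 1 rearranged light chain gene. Each runs from a variable segment into a constant gene. CPM below are counts scaled to a common library size with TMM factors, and a level per kilobase divides CPM by the length of the annotated exons. Where a value in bulk marrow differs, fewer cells of a type and less RNA per cell cannot be told apart.

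Library totals ran between 4500326 and 13161087 counts, of which genes of mitochondrial DNA held 35.0% to 40.3%. Bortezomib 1, combination 1 and delayed combination 2 stood apart by base composition. Across 9111 genes, the deviation of their log2 CPM from the mean over libraries correlated with GC content at 0.60, 0.57 and 0.38. The correlation was -0.41 to 0.22 in the other treated libraries and -0.47 to -0.43 in the PBS libraries. These are correlations across genes, which are not independent. All PBS libraries lay below every treated library on this GC axis. Every comparison with PBS therefore carries a difference along it, which leaving out those 3 libraries does not remove. Plasma cell genes were abundant: XBP1, the transcription factor of the secretory cell, averaged 2514 CPM and SDC1, the surface proteoglycan of plasma cells, 1143 CPM, while of the 10 B cell markers MS4A1 and PAX5 held 6 and 10 counts over all 15 libraries and BACH2, CIITA and CR2 averaged 22.4, 20.5 and 19.7 CPM. The 10 summed to 54.5 to 74.7 CPM in treated libraries and to 66.8 to 77.1 CPM in PBS libraries. Host cell genes were low but uneven: the 8 erythroid markers summed to 341, 34.1 and 28.97 CPM in the elesclomol libraries, against 20.4 to 32.0 CPM in PBS libraries, with HBA1 at 0 in all 15. Elesclomol 1 also had the highest sum of the 9 granulocyte markers (127 CPM, against 13.9 to 25.9 CPM in PBS libraries). The 10 stromal and endothelial markers summed to 80.0 to 134 CPM under elesclomol and 84.3 to 197 CPM under the delayed combination. PBS libraries had 43.7 to 68.5 CPM, which the bortezomib and combination groups overlapped. Macrophage markers summed highest in delayed combination 2 (67.7 CPM) and elesclomol 1 (62.6 CPM), against 14.5 to 29.3 CPM in PBS libraries. With host marker level as a covariate none of the 5 tested genes passed, and JCHAIN and MZB1 gave -0.03 and 0.11 on the log2 scale for elesclomol against PBS, where without elesclomol 1 they gave 0.01 and 0.09. How reads of mouse origin or reads that match several genes were treated is not given in the sources used here.

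JCHAIN was the most abundant nuclear protein-coding gene of these marrows, by CPM and per kilobase, among 19393 such genes. It averaged 8106 ± 625 CPM (SD, n = 15 libraries) and took 0.707% to 0.915% of all counts, or 1.16% to 1.53% of those outside mitochondrial genes. Per kilobase its level was 4825 CPM, against 830 for XBP1, rank 4 in that order. No stretch of 50 bases of its longest transcript occurs in the transcripts of another human gene in GENCODE 29. By that measure its 954782 counts are the least exposed of the 7 genes to reads shared between human genes. Mouse transcripts were not searched.

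In single libraries, JCHAIN had 7306, 7832 and 7796 CPM under bortezomib, 7992, 7981 and 8581 CPM under elesclomol, 7204, 7941 and 8886 CPM under the combination, 7765, 7915 and 9766 CPM under the delayed combination, and 8246, 8125 and 8253 CPM under PBS. All 3 bortezomib libraries lay below all 3 PBS libraries, as 20.2% of all tested genes had these 2 groups without overlap in either direction. The other 3 treated groups overlapped PBS. The PBS libraries were close together (8208 ± 72.0 CPM) and the delayed combination libraries far apart (8482 ± 1115 CPM, SD, n = 3 each), with delayed combination 3 the highest of all. By group mean the order from low to high was bortezomib, combination, elesclomol, PBS and delayed combination, and no neighbours in that order differed by more than the larger of their SDs. The log2 change under bortezomib was -0.10 ± 0.12 (SE) against PBS, with a 95% interval for the fold of 0.786 to 1.10 and an adjusted p of 0.70 (Benjamini-Hochberg over 13085 genes, quasi-likelihood test of edgeR). It was -0.0041 ± 0.12 under elesclomol, -0.04 ± 0.12 under the combination and 0.05 ± 0.12 under the delayed combination (adjusted p 0.996, 0.897 and 0.866 in edgeR). Over these 4 comparisons the intervals covered folds of 0.786 to 1.23, or -0.35 to 0.29 on the log2 scale. These bounds hold for the main fit alone. After the correction for GC content and length given below, JCHAIN reached 0.35 under the combination and 0.37 under the delayed combination.

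**Figure D1:**
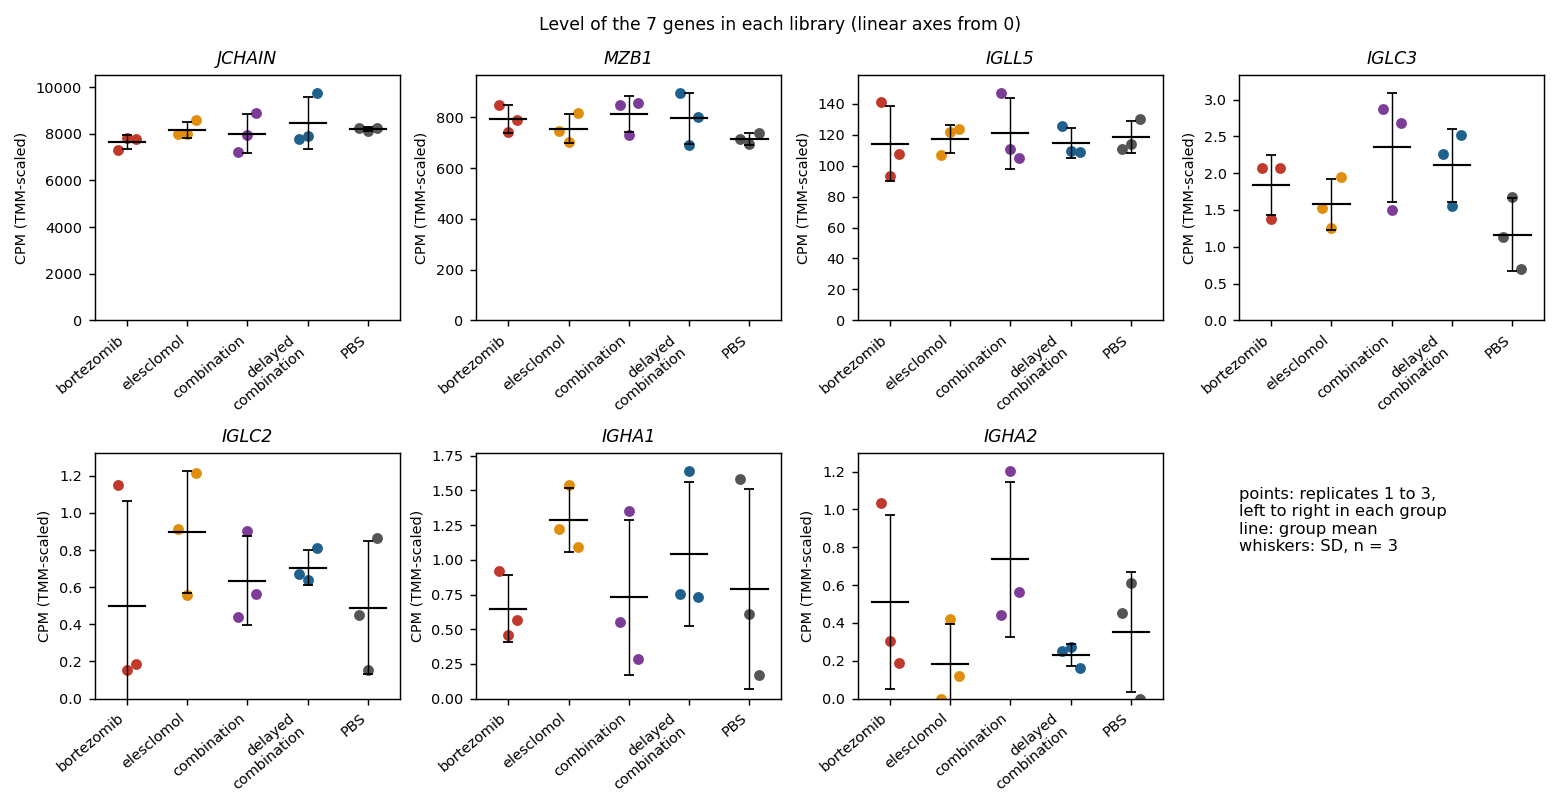
Level of each of the 7 genes in each library, in TMM-scaled CPM on linear axes from 0; points are libraries, lines group means and whiskers SD (n = 3). JCHAIN lies at 7204 to 9766 CPM and MZB1 at 692 to 894 CPM in all 15 libraries, while IGLC2, IGHA1 and IGHA2 reach at most 1.64 CPM and scatter within every group.

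MZB1 averaged 774 ± 66.6 CPM (SD, n = 15 libraries), which placed it at rank 34 of the nuclear protein-coding genes by CPM and at rank 19 per kilobase (341 CPM per kilobase). The libraries had 848, 741 and 789 CPM under bortezomib, 745, 704 and 817 CPM under elesclomol, 848, 730 and 857 CPM under the combination, 894, 692 and 801 CPM under the delayed combination, and 713, 694 and 738 CPM under PBS. All 3 bortezomib libraries lay above all 3 PBS libraries, by a margin of 741 against 738 CPM at the nearest pair, and the other treated groups overlapped PBS. Of all tested genes, 20.2% had bortezomib and PBS groups without overlap, in either direction. From low to high the group means ran PBS, elesclomol, bortezomib, delayed combination and combination, again with no neighbours apart by more than the larger SD. The log2 change against PBS was 0.15 ± 0.11 (SE) under bortezomib, 0.08 ± 0.11 under elesclomol, 0.18 ± 0.11 under the combination and 0.16 ± 0.11 under the delayed combination. None passed in edgeR (adjusted p 0.574, 0.909, 0.456 and 0.553), and the highest upper bound of the 4 intervals was a 1.34-fold level, for the combination.

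Neither abundant gene was related to the base composition of the libraries past the adjusted threshold, but a correction for it moved both. MZB1, whose exons are 58.3% GC, correlated with the GC correlation of the library at Pearson r = 0.53 (permutation p = 0.042, adjusted 0.10 over 5 genes; Spearman rho = 0.50, p = 0.057, adjusted 0.14, n = 15), and at r = 0.34 without bortezomib 1 and combination 1, the libraries farthest along that axis. JCHAIN, at 35.8% GC, gave r = -0.33 (permutation p = 0.23, adjusted 0.29; rho = -0.38, p = 0.17, adjusted 0.28), and 0.15 without those 2. After a correction for GC content and length, added after seeing the data, the log2 changes of JCHAIN against PBS were 0.29, 0.20, 0.35 and 0.37 in the order bortezomib, elesclomol, combination and delayed combination, and those of MZB1 were -0.02, -0.01, -0.01 and 0.01. None of these 8 passed (the lowest adjusted p of edgeR was 0.477, for JCHAIN in the delayed combination), but the direction of both genes under bortezomib turned with this setting.

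**Figure D2:**
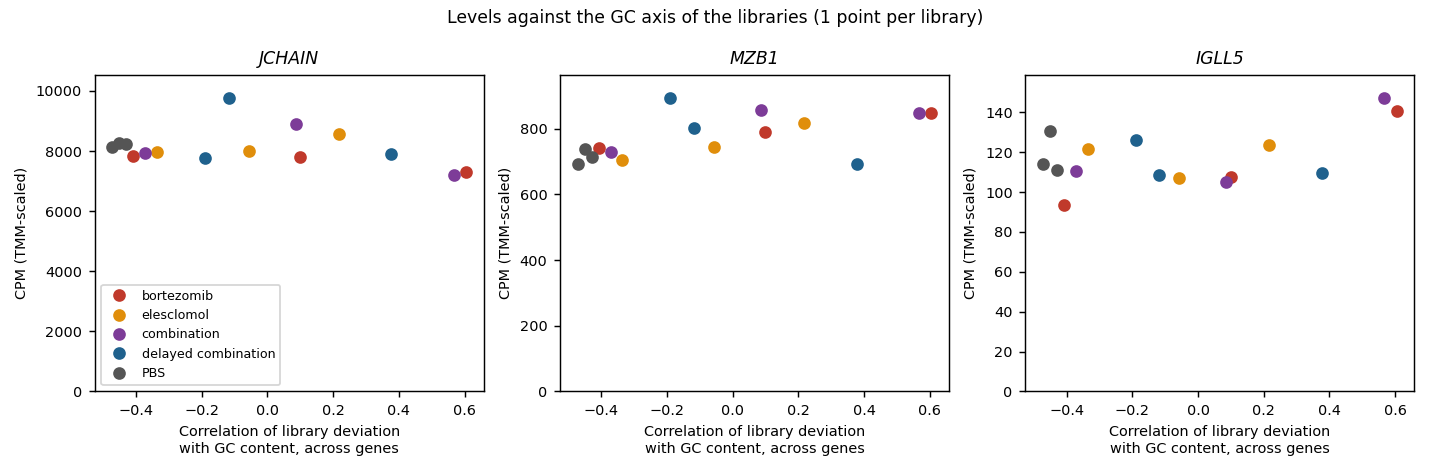
CPM of JCHAIN, MZB1 and IGLL5 (linear axes from 0) against the correlation of each library's deviation with gene GC content, 1 point per library, coloured by group. The PBS libraries sit together at the left, between -0.47 and -0.43, and bortezomib 1 and combination 1 sit at 0.60 and 0.57 with the lowest pair of JCHAIN values and the highest pair of IGLL5 values.

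IGLL5, a gene of the lambda locus on chromosome 22 whose exons include the first lambda joining and constant segments, was the third of the 7 by level, at 117 ± 14.4 CPM (SD, n = 15) and 87.8 CPM per kilobase. All 460 exon bases annotated to IGLC1, the first lambda constant gene, lie inside IGLL5 exons on the same strand in GENCODE 29, and IGLC1 had 0 counts in all 15 libraries. Reads in these shared exons cannot be told apart, so the count of 0 sets no limit on the level of IGLC1. IGLL5 had 141, 93.6 and 108 CPM under bortezomib, 107, 122 and 124 CPM under elesclomol, 147, 111 and 105 CPM under the combination, 126, 110 and 109 CPM under the delayed combination, and 111, 114 and 131 CPM under PBS. Every treated group overlapped PBS, and the highest values were those of bortezomib 1 and combination 1, both GC-rich libraries. The log2 changes against PBS lay between -0.05 and 0.03, each with an SE of 0.15 (edgeR adjusted p 0.894 to 0.991). IGLL5 exons are 59.6% GC, and its correlation with the GC axis of r = 0.47 (permutation p = 0.076, adjusted 0.13; rho = 0.15, p = 0.59, adjusted 0.68, n = 15) was -0.08 without those 2 libraries.

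IGLC2 and IGLC3 encode lambda constant domains that differ at 3 of 317 bases. Bases 18 to 267 of both, counted from the first base of the coding part, are shown (GENCODE 29 transcripts, GRCh38, chromosome 22, coding strand), with the 3 differing bases in capitals, because a read inside the coding part that covers none of them matches both genes.
IGLC2: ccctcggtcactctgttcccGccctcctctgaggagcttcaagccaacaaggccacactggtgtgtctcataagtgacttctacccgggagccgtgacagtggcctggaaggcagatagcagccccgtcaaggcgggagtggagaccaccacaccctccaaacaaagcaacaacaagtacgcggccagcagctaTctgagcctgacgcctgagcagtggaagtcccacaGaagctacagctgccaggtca
IGLC3: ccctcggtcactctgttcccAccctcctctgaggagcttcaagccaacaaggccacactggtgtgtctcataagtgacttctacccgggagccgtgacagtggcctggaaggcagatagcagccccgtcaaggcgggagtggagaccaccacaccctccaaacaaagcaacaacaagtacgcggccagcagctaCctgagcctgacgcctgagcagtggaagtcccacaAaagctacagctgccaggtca
Of the 50-base stretches of the whole transcripts, 66.1% for IGLC2 and 67.1% for IGLC3 occur in the transcript of another gene, and of the 100-base stretches 30.0% for both. The counts were low in every library. IGLC3 had 18, 9 and 11 counts under bortezomib, 10, 9 and 16 under elesclomol, 26, 10 and 19 under the combination, 27, 17 and 31 under the delayed combination, and 5, 11 and 4 under PBS. In CPM its group means were 1.84 ± 0.41, 1.58 ± 0.35, 2.35 ± 0.74 and 2.11 ± 0.50 in the same order of treatments, and 1.17 ± 0.49 under PBS (SD, n = 3 each). PBS 3 was the lowest library, and each treated group overlapped PBS through PBS 2.

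The log2 change of IGLC3 against PBS was 0.63 ± 0.41 (SE) under bortezomib, 0.42 ± 0.41 under elesclomol, 1.00 ± 0.39 under the combination and 0.83 ± 0.38 under the delayed combination. The intervals for the fold were wide, for example 1.12 to 3.57 under the combination, and the adjusted p of edgeR was 0.54, 0.854, 0.321 and 0.45. Of all member tests this for the combination had the lowest unadjusted p, and with limma voom in place of edgeR it passed the threshold (log2 change 1.09, adjusted p = 0.045), the 1 call among the 7 genes under any alternative. In that comparison limma voom called 1394 of all 13085 tested genes, where edgeR called 0. IGLC2 stayed under the filter on low counts and was not tested. It had 10, 1 and 1 counts under bortezomib, 6, 4 and 10 under elesclomol, 4, 6 and 4 under the combination, 8, 7 and 10 under the delayed combination, and 2, 1 and 5 under PBS. IGLC2 and IGLC3 added together gave 10 to 41 counts in a treated library and 7 to 12 in a PBS library. These sums are not scaled for depth: totals were 5458022 to 13161087 counts in treated libraries and 4500326 to 6287708 in PBS libraries. The sum of 41 was that of delayed combination 3, the library with the highest total.

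IGHA1 and IGHA2, the constant genes of the alpha heavy chain that defines immunoglobulin A, were close to absent from these counts. Their aligned coding parts shared 1118 bases and differed at 37, with 57 positions present in 1 of the pair. The stretch around the longest unmatched run, in the hinge between the arms and the stem of the antibody, is shown for both, since it holds the longest run of bases by which the pair differs (GENCODE 29 transcripts, GRCh38, chromosome 14, coding strand; bases 255 to 404 of IGHA1 and 255 to 365 of IGHA2, counted from the first base of the coding part; capitals mark bases that differ or have no counterpart in the other gene).
IGHA1: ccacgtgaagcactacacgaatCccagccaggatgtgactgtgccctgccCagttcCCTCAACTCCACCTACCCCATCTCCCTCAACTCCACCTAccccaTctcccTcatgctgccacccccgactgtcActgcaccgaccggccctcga
IGHA2: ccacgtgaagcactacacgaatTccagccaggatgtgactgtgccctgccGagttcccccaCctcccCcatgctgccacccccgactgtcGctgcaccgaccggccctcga
Of the whole transcripts, 34.3% of the 50-base stretches of IGHA1 and 34.0% of those of IGHA2 occur in the other gene. Of the 100-base stretches, 8.42% of those of IGHA1 and 8.35% of those of IGHA2 do. IGHA1 had 8, 3 and 3 counts under bortezomib, 8, 11 and 9 under elesclomol, 5, 9 and 2 under the combination, 9, 18 and 9 under the delayed combination, and 7, 4 and 1 under PBS. Its levels overlapped between every treated group and PBS, and PBS alone spanned 0.17 to 1.58 CPM. The log2 changes against PBS were -0.12 ± 0.72, 0.80 ± 0.64, -0.04 ± 0.71 and 0.49 ± 0.63 (SE) in the order bortezomib, elesclomol, combination and delayed combination, and none passed in edgeR (adjusted p 0.955, 0.814, 0.987 and 0.732). These intervals reached from 0.317-fold to 4.50-fold, so a several-fold change of IGHA1 was not detectable at this depth.

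IGHA2 was lower still and was not tested. It had 9, 2 and 1 counts under bortezomib, 0, 3 and 1 under elesclomol, 4, 8 and 4 under the combination, 3, 3 and 2 under the delayed combination, and 2, 4 and 0 under PBS. Elesclomol 1 and PBS 3 were at 0, where a floor of 3 counts is as high as most of the values observed.

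The other constant genes put these levels in context. Of the gamma genes, which define immunoglobulin G, IGHG1 averaged 76.1 ± 7.26 CPM (SD, n = 15) with 353 to 966 counts in a library. IGHG3 held 941 counts over all libraries, IGHG4 33, IGHG2 16 and the mu gene IGHM 12, against 106 for IGHA1 and 46 for IGHA2, while IGHD, IGHE and the kappa constant gene IGKC had 0 in all 15. Per kilobase, IGHG1 stood at 27.6 CPM and IGHA1 at 0.632 CPM, and IGHG1 shares 55.1% of its 50-base stretches with other genes. Among the further lambda genes IGLC7 held 981 counts, IGLC6 724, IGLL1 239, IGLC4 159 and IGLC5 87. The levels per kilobase fell over the 7 genes in the order JCHAIN, MZB1, IGLL5 (87.8 CPM), IGLC3 (3.91 CPM), IGLC2 (1.40 CPM), IGHA1 (0.632 CPM) and IGHA2 (0.281 CPM).

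**Figure D3:**
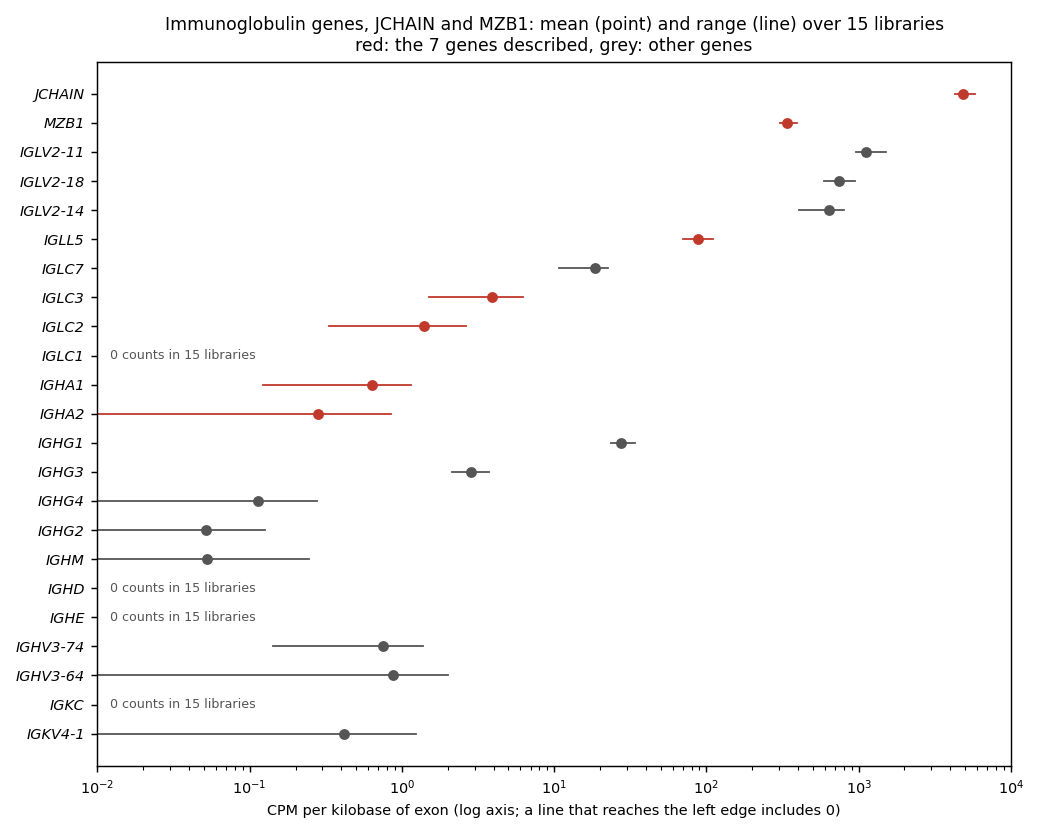
Mean (point) and range (line) over 15 libraries of the level in CPM per kilobase of exon, on a log axis, for the 7 genes (red) and other immunoglobulin genes (grey). JCHAIN stands highest at 4825 CPM per kilobase, the IGLV2 segments, MZB1 and IGLL5 follow, and the alpha genes average 0.632 and 0.281 CPM per kilobase; IGLC1, IGHD, IGHE and IGKC had 0 counts.

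Lambda chain reads were plentiful in the variable segments. The 75 lambda variable segments in the tables held 143968 counts, against 140 for the 130 heavy chain variable segments and 46 for the 96 kappa segments. The 3 highest lambda segments were IGLV2-11 at 445 ± 57.8 CPM, IGLV2-18 at 271 ± 31.8 CPM and IGLV2-14 at 257 ± 37.5 CPM (SD, n = 15). Among the heavy segments IGHV3-74 led with 51 counts over all libraries, IGHV3-64 had 42 and IGHV1OR15-1 had 12. Neither these segments nor the alpha genes held an abundant heavy chain transcript. These counts therefore do not show the alpha chain of the described type, and the reason was not tested. Among the kappa segments IGKV4-1 had 29, IGKV1D-17 had 10 and IGKV1-6 had 2. The IGLV2 segments resemble each other (51.8% of the 50-base stretches of IGLV2-14 occur in another gene), so the division of counts among them is uncertain.

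One library, elesclomol 2, stood apart in that division; it is described together with IGLV2-23, which was chosen after its values were seen. Of the counts of these 4 segments, IGLV2-14 held 14.8% (95% Wilson interval 14.0% to 15.6%) and IGLV2-23 held 22.0% (21.1% to 22.9%) in elesclomol 2, against 19.2% to 24.6% and 12.2% to 16.5% in the other 14 libraries. The ratio of IGLV2-23 to IGLV2-14 was 1.49 in elesclomol 2 and 0.546 to 0.682 in the other 14. Delayed combination 3, which had the highest JCHAIN level, had the largest share of IGLV2-11, 43.5% (42.7% to 44.2%), and the lowest shares of IGLV2-14 and IGLV2-23 among those 14. The intervals cover counting error alone.

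**Figure D4:**
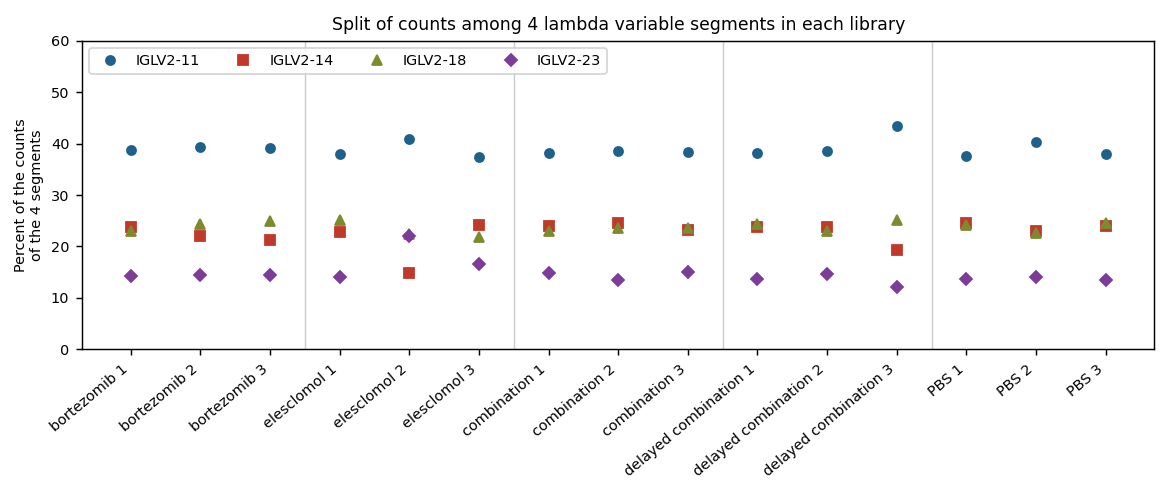
Percent of the counts of 4 lambda variable segments held by each segment, by library; grey lines part the groups. In elesclomol 2 IGLV2-23 (22.0%) lies above IGLV2-14 (14.8%), and in each of the other 14 libraries it lies below.

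Read against the background of all genes, the 7 genes gave no call in any comparison. With bortezomib against PBS, 0 of the 5 tested genes passed, as did 0% of all 13085 genes in edgeR; none of the 5 and 1388 of all genes (10.6%) had an unadjusted p under 0.05. The 2 genes whose groups did not overlap, JCHAIN (lower) and MZB1 (higher), compare with 20.2% of all genes. With elesclomol against PBS, 0 of the 5 passed against 0.0688% of all genes (9 genes), none had an unadjusted p under 0.05 against 8.07% (1056 genes), and none of the 5 had groups that did not overlap against 19.8% of all genes. With the combination against PBS, 0 of the 5 passed against 0% of all genes, and 1 of the 5, IGLC3, was under an unadjusted p of 0.05, as were 1784 of all genes (13.6%); none of the 5 was without overlap, against 22.2%. With the delayed combination against PBS the counts were again 0 of 5 and 0%, with IGLC3 as 1 of 5 and 1447 of all genes (11.1%) under the unadjusted threshold, and none of the 5 without overlap against 27.5%. These 4 comparisons share the PBS libraries. DESeq2 also called none of the 5 in them, with 9, 49, 51 and 46 calls over all genes, and limma voom called IGLC3 alone, in the combination, with 741, 54, 1394 and 168 calls over all genes.

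**Figure D5:**
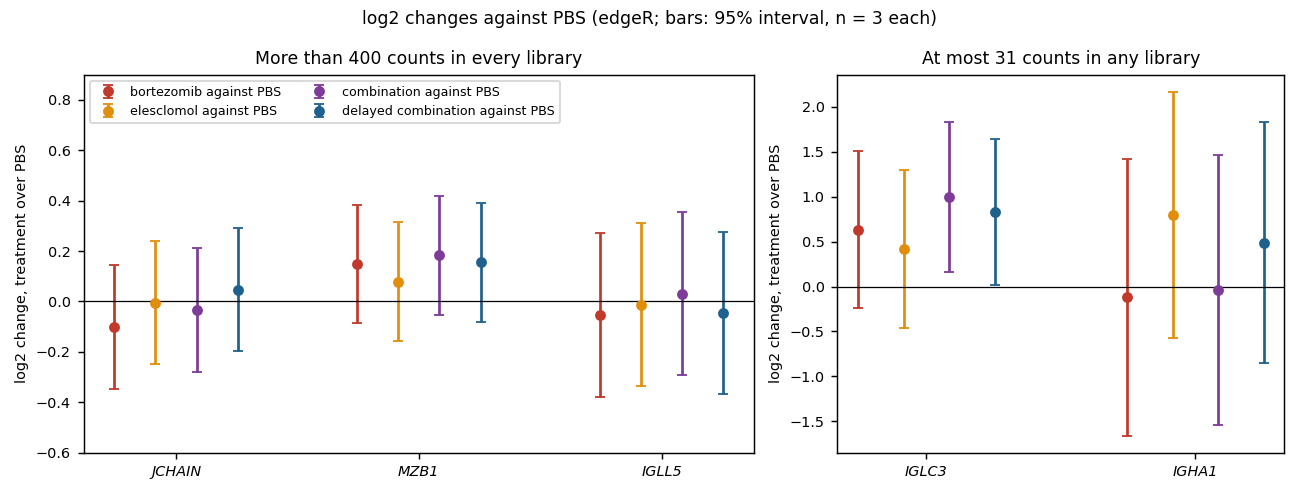
Log2 change of the 5 tested genes against PBS in edgeR with 95% intervals (n = 3 libraries a group), for genes with at least 492 counts in every library (left) and at most 31 in any (right, wider axis). All intervals at the left cross 0 and stay within -0.38 to 0.42, and those of IGHA1 span more than 2 log2 units.

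Between treatments none of the 5 genes passed either. With the combination against bortezomib, 0 of the 5 genes passed and 0% of all genes did (554 of them, 4.23%, at an unadjusted p under 0.05); the log2 change was 0.07 ± 0.12 (SE) for JCHAIN and 0.03 ± 0.11 for MZB1. Same-numbered libraries of these 2 groups deviated together, and with the number as a block 0 of the 5 passed while 5 genes of all did. They also lay close on the GC axis, with bortezomib and combination at 0.60 and 0.57 for number 1. For number 2 the values were -0.41 and -0.37, and for number 3 they were 0.10 and 0.09. The part of the GC axis in the shared deviation was not tested. With the combination against elesclomol the counts were 0 of the 5 and 0% of all genes (1597 unadjusted, 12.2%), with -0.03 ± 0.12 for JCHAIN and 0.10 ± 0.11 for MZB1. With the delayed combination against bortezomib they were 0 of the 5 and 0% (460 unadjusted, 3.52%), with 0.15 ± 0.12 for JCHAIN and 0.01 ± 0.11 for MZB1. With the delayed combination against the combination they were 0 of the 5 and 0% (344 unadjusted, 2.63%), with 0.08 ± 0.12 for JCHAIN and -0.03 ± 0.11 for MZB1. In these 4 comparisons none of the 5 genes had groups without overlap, against 8.19%, 16%, 6.69% and 7.59% of all genes. DESeq2 made 1, 53, 8 and 0 calls over all genes in the same order and limma voom 35, 205, 7 and 0, none of them among the 5. For the interaction of both drugs, the combination change beyond the sum of the single changes, 0 of the 5 passed against 0.00764% of all genes (1150 genes unadjusted, 8.79%), with 0.07 ± 0.16 for JCHAIN and -0.05 ± 0.16 for MZB1 (edgeR adjusted p 0.948 and 0.968).

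Ratios within a library need no scaling between libraries. The log2 ratio of MZB1 to JCHAIN counts, chosen after it was seen that the alpha genes held few counts, was -3.27 ± 0.15 under bortezomib, -3.44 ± 0.06 under elesclomol, -3.30 ± 0.19 under the combination, -3.41 ± 0.26 under the delayed combination and -3.52 ± 0.03 under PBS (SD, n = 3 each). MZB1 was thus higher relative to JCHAIN by 0.25 under bortezomib, by 0.22 under the combination, by 0.08 under elesclomol and by 0.11 under the delayed combination. The exact two-sided permutation p was 0.1, 0.1, 0.2 and 0.8 in that order of naming, and 0.1 is the smallest that 3 against 3 libraries can give. This direction turned with the correction for GC content and length, where the fitted log2 change of MZB1 minus that of JCHAIN was -0.31 under bortezomib, -0.36 under the combination, -0.20 under elesclomol and -0.36 under the delayed combination. The ratios with the alpha genes below the line rested on 1 to 21 counts. For these, treated groups are given in the order bortezomib, elesclomol, combination and delayed combination. The log2 of lambda (IGLC2 with IGLC3) over alpha (IGHA1 with IGHA2) was 1.10 ± 0.44, 0.76 ± 0.77, 1.196 ± 1.12 and 1.21 ± 0.90, and 1.13 ± 1.83 under PBS (exact permutation p 0.9 to 1). JCHAIN over alpha was 12.8 ± 0.84, 12.5 ± 0.43, 12.6 ± 0.90 and 12.8 ± 0.71 in the same order, against 13.4 ± 1.88 under PBS, and MZB1 over alpha lay 0.32 to 0.84 below its PBS value (exact permutation p at least 0.7 for both). Without PBS 3, whose alpha count was 1, the differences of JCHAIN over alpha and MZB1 over alpha changed sign in all 4 comparisons.

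All heavy, lambda and kappa constant and variable genes together held 0.133% ± 0.019 of the counts under bortezomib, 0.129% ± 0.010 under elesclomol, 0.137% ± 0.015 under the combination, 0.139% ± 0.009 under the delayed combination and 0.123% ± 0.005 under PBS (SD, n = 3 each). The treated means were higher in all 4 groups, and the exact permutation p was 0.5, 0.5, 0.3 and 0.1, with an adjusted p of 1 over 16 such tests. The difference from PBS was 0.010 percentage points under bortezomib and 0.00016 without bortezomib 1, and 0.014 under the combination and 0.0061 without combination 1, both GC-rich libraries. It was 0.0055 under elesclomol and -0.00026 without elesclomol 3.

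Of the 10 pairs among the 5 tested genes, IGLC3 and MZB1 varied together over the 15 libraries (r = 0.72, permutation p = 0.0020, adjusted 0.020; rho = 0.72, permutation p = 0.0037, adjusted 0.037). The correlation was 0.82 without PBS 3 and combination 1, the libraries farthest out in IGLC3, and 0.58 for deviations from the group means. It rests on 4 to 31 IGLC3 counts a library, and IGLC3 also followed the GC axis (r = 0.62, permutation p = 0.012, adjusted 0.062; rho = 0.63, p = 0.013, adjusted 0.063), whose part in the relation was not tested. JCHAIN and MZB1 showed no relation past the threshold in these libraries (r = -0.04, permutation p = 0.89, adjusted 0.89; rho = -0.16, p = 0.57, adjusted 0.82), nor did any of the remaining 8 pairs (the lowest adjusted p was 0.43).

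The genes with profiles most like each member over the 15 libraries were found among 9005 genes by the root mean square difference of centred log2 CPM. For JCHAIN, whose own SD was 0.11, these were ASAH1 (0.065), an acid ceramidase of the lysosome, PRKAR1A (0.072), a regulatory subunit of protein kinase A, and SEPT2 (0.073), a septin. For MZB1, with an SD of 0.12, they were NRBP1 (0.065), PDIA6 (0.069), a disulfide isomerase of the endoplasmic reticulum, and DERL3 (0.071), a Derlin of the pathway that removes misfolded proteins from it. For IGLL5, with an SD of 0.17, they were PTPA (0.083), DGUOK (0.084) and TXNRD2 (0.090). The nearest genes to IGLC3 (FAM78A 0.27, RRS1 0.28 and YKT6 0.28, SD of IGLC3 0.46) and IGHA1 (BEND3 0.50, SIAE 0.51 and RN7SL334P 0.51, SD of IGHA1 0.66) were farther from them, at the few counts given above.

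The chaperones and enzymes that fold and export antibody chains were highly expressed beside JCHAIN and MZB1, and none passed the test. All 24 genes of the list of assembly and secretion partners were tested. Of these, 21 lay above 0 under bortezomib, 19 under elesclomol, 21 under the combination and 22 under the delayed combination, each against PBS. Their median log2 changes were 0.19, 0.04, 0.29 and 0.24, beside 0.02, 0.00, 0.01 and 0.01 for all tested genes. CANX, the lectin chaperone calnexin, averaged 1908 ± 108, 1774 ± 66.8, 1923 ± 182 and 1970 ± 163 CPM in the 4 treated groups in that order, and 1682 ± 4.53 CPM under PBS (SD, n = 3 each); each treated group lay above PBS without overlap, with log2 changes of 0.18, 0.08, 0.19 and 0.23 (edgeR adjusted p at least 0.404). P4HB, a disulfide isomerase, also lay above PBS in all 4 without overlap, with log2 changes of 0.33, 0.17, 0.30 and 0.27 (adjusted p at least 0.324). Of all genes, 20.2%, 19.8%, 22.2% and 27.5% had groups without overlap in these comparisons, in either direction. The 4 comparisons share the PBS libraries, and this list was not examined under the correction for GC content and length. HSP90B1, the chaperone GRP94, overlapped PBS in all 4, with log2 changes of -0.03 to 0.03. MZB1, a partner of HSP90B1 in the endoplasmic reticulum, gave 0.08 to 0.18 on the same scale.

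Of the 12 transcription factors of plasma cells and immunoglobulin genes, 11 were tested and none passed. XBP1 averaged 2443 ± 195 CPM under bortezomib, 2867 ± 192 CPM under elesclomol, 2235 ± 55.8 CPM under the combination, 2798 ± 91.8 CPM under the delayed combination and 2227 ± 228 CPM under PBS (SD, n = 3 each). It lay above PBS without overlap under elesclomol and the delayed combination (log2 changes 0.36 and 0.33, edgeR adjusted p 0.363 for both). In these groups the JCHAIN changes were -0.0041 and 0.05, and 19.8% and 27.5% of all genes did not overlap PBS. IRF4, needed for plasma cell identity, gave log2 changes of -0.20, -0.23, 0.03 and 0.06, and MEF2C gave 0.03, 0.08, 0.03 and -0.02 (adjusted p at least 0.497 for both). The 4 medians of the list were 0.05, 0.08, 0.03 and 0.06.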

How the data were processed

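Total RNA was sequenced from femoral marrow of 15 mice, 3 a group, after depletion of ribosomal RNA with a stranded kit, per the labels' protocols. The deposited values are raw read counts per gene for 57773 Ensembl genes in each library. Reads were processed with STAR 2.5.4b, featureCounts 1.6.1 and the GRCh37 build, per the submitters' processing notes. The strand setting, the annotation release and the treatment of reads that match several genes or come from mouse cells were left unstated in these notes, labels and headers. Shared exons and near-identical genes of the immunoglobulin loci make those counts uncertain, as given beside them.

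From these counts, symbols, exon lengths and GC content were taken from GENCODE 29, which named 52338 genes, and the fit kept the remaining 5435 (1.07% of counts). Sequences are GENCODE 29 transcripts on GRCh38, so no coordinates are given. The main test was edgeR 4.0.16 (R 4.3.3): quasi-likelihood F test, robust, TMM factors, filterByExpr (minimum count 10; 13085 genes kept), among them 5 of the 7 members, 1 model over all 15 libraries (common biological coefficient of variation 0.171) and Benjamini-Hochberg adjusted p under 0.05. The edgeR p-values set a difference between groups against the spread between mice within groups, estimated over all groups together. Python 3.11.15 with scipy 1.17.1 gave the permutation tests (100000 resamples for relations), pandas 2.3.3 the tables and matplotlib 3.10.9 the plots. The code was tested on simulated counts with 200 changed genes. Wilson intervals and floors cover counting error only; intervals of folds come from the edgeR fit and include the spread between mice.

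The members and the 14 further gene lists (126 genes, 124 found) were chosen with earlier results of these data known. All members are given, the 3 genes most like each tested member, and from each list the genes past the test, otherwise up to 3 with the highest level. Samples were grouped by their titles. Within groups, every pair of libraries differed beyond counting noise. Chi-square per degree of freedom was 2.25 to 3.24 for pairs of PBS libraries and 5.62 to 27.2 for pairs within the treated groups. Alternatives were DESeq2 1.42.0 as the test, its size factors in edgeR, limma 3.58.1 (voom, quality weights), all genes unfiltered, genes with a mean log2 CPM of 3 or more, library sizes without mitochondrial and immunoglobulin genes, a fit of the compared groups alone, a block by replicate number, a host marker covariate, near-identical pairs summed, leaving out the 3 GC-rich libraries and each library in turn. A GC and length correction (loess, span 0.3), other genes in the ratios and a blocked fit of bortezomib and combination libraries alone were added after seeing the data. Same-numbered libraries of those 2 groups deviated together (correlations 0.811, 0.713 and 0.225, and 0.442 for combination 3 with bortezomib 2), a pairing that only the data show, not the labels. No other comparison had all 3 above 0.1. Libraries of different number could deviate together as well: delayed combination 2 gave 0.706 with combination 1 and -0.663 with combination 2.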

Additional observations from a re-analysis of the deposited data

How the results depend on the processing

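The count of members passing stayed at 0 in all 9 comparisons under every alternative that was run except 1: limma voom called 1 member, IGLC3, for the combination against PBS. That fit called 1394 of all genes in the same comparison. The 45 member changes were recomputed 1173 times, of which 1083 kept their sign, 90 turned it and 1 passed the threshold; the cause of each turn was not tested. IGHA1 and IGLC3 rest on at most 31 counts a library, which limits what their changes can show, and IGHA2 and IGLC2 could be tested without the filter alone. With the replicate block over all groups, 0 members passed and the JCHAIN change for bortezomib against PBS was -0.10; with the block in bortezomib and combination libraries alone 0 passed as well, with 0.071 for JCHAIN, and the pairing changed no other call of a member. Over all genes the block called 2 for combination against PBS, 3 for delayed combination against PBS and 1 for combination against elesclomol, where 0 were called without it, and 2 rather than 1 for the interaction.

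The log2 changes that turned sign were these. Without the 3 GC-rich libraries together, JCHAIN gave 0.0030 for elesclomol against PBS, 0.043 for combination against PBS and 0.041 for combination against elesclomol, IGLL5 gave -0.13 for combination against PBS, -0.12 for combination against elesclomol and 0.13 for delayed combination against combination, IGLC3 gave 0.18 for delayed combination against combination, and MZB1 gave 0.10 for delayed combination against combination. With the GC and length correction, JCHAIN gave 0.29 for bortezomib against PBS, 0.20 for elesclomol against PBS, 0.35 for combination against PBS, 0.15 for combination against elesclomol and -0.13 for the interaction, MZB1 gave -0.019 for bortezomib against PBS, -0.0069 for elesclomol against PBS, -0.0064 for combination against PBS, 0.018 for delayed combination against combination and 0.0197 for the interaction, IGLL5 gave -0.16 for combination against PBS and -0.037 for combination against elesclomol, and IGLC3 gave 0.074 for the interaction. With limma voom, IGHA1 gave 0.16 for bortezomib against PBS and -0.55 for combination against bortezomib, IGLL5 gave -0.12 for combination against PBS, -0.10 for combination against elesclomol and 0.040 for delayed combination against combination, JCHAIN gave 0.065 for combination against PBS and 0.070 for combination against elesclomol, and MZB1 gave 0.0048 for the interaction. With IGHA1 and IGHA2 summed, IGHA1 gave 0.16 for bortezomib against PBS, 0.39 for combination against PBS and -0.18 for delayed combination against combination. With host marker level as a covariate, IGLL5 gave 0.15 for elesclomol against PBS, -0.13 for combination against elesclomol and -0.10 for the interaction. With only the groups compared in the fit, JCHAIN gave 0.0048 for elesclomol against PBS. With the IGLV2 segments over JCHAIN in place of lambda over alpha, the differences from PBS were 0.26 for bortezomib and 0.090 for elesclomol, and with all heavy and lambda constant genes the combination gave -0.016. Without the 3 GC-rich libraries lambda over alpha differed by 0.16 for bortezomib and -0.21 for the combination, and MZB1 over alpha by 0.089 for bortezomib. With all heavy constant genes as alpha, JCHAIN over alpha differed by 0.061 for the delayed combination and MZB1 over alpha by 0.038, 0.093 and 0.17 for bortezomib, the combination and the delayed combination. With JCHAIN as the denominator MZB1 differed by 0.25, 0.082, 0.22 and 0.11 for bortezomib, elesclomol, the combination and the delayed combination.

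With each library left out in turn, the lowest and highest values were as follows where the sign turned for at least 1 library. The lambda to alpha ratio differences ran -0.78 to 0.99 for bortezomib against PBS, -1.12 to 0.65 for elesclomol against PBS, -0.68 to 1.085 for combination against PBS and -0.67 to 1.10 for delayed combination against PBS. The J chain to alpha ratio differences ran -1.28 to 0.50 for bortezomib against PBS, -1.64 to 0.14 for elesclomol against PBS, -1.53 to 0.25 for combination against PBS and -1.34 to 0.44 for delayed combination against PBS. The MZB1 to alpha ratio differences ran -1.03 to 0.77 for bortezomib against PBS, -1.56 to 0.24 for elesclomol against PBS, -1.31 to 0.49 for combination against PBS and -1.24 to 0.57 for delayed combination against PBS. The immunoglobulin share of counts ran -0.00026 to 0.0095 percentage points for elesclomol against PBS. The IGHA1 changes ran -0.62 to 0.72 for bortezomib against PBS, -0.76 to 0.80 for combination against PBS, -0.0056 to 1.32 for delayed combination against PBS and -0.63 to 0.47 for combination against bortezomib. The IGLL5 changes ran -0.24 to 0.072 for bortezomib against PBS, -0.058 to 0.065 for elesclomol against PBS, -0.14 to 0.11 for combination against PBS, -0.13 to 0.027 for delayed combination against PBS, -0.083 to 0.27 for combination against bortezomib, -0.12 to 0.12 for combination against elesclomol, -0.12 to 0.19 for delayed combination against bortezomib, -0.15 to 0.089 for delayed combination against combination and -0.069 to 0.28 for the interaction. The JCHAIN changes ran -0.041 to 0.013 for elesclomol against PBS, -0.13 to 0.036 for combination against PBS, -0.067 to 0.10 for delayed combination against PBS, -0.016 to 0.14 for combination against bortezomib, -0.13 to 0.041 for combination against elesclomol, -0.031 to 0.17 for delayed combination against combination and -0.014 to 0.14 for the interaction. The MZB1 changes ran -0.015 to 0.10 for combination against bortezomib, -0.084 to 0.10 for delayed combination against bortezomib, -0.12 to 0.063 for delayed combination against combination and -0.093 to 0.0202 for the interaction. The IGLC3 changes ran -0.38 to 0.0087 for delayed combination against combination and -0.46 to 0.22 for the interaction.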

Other observations

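Other gene lists around the secretory cell were measured beside the 7 genes. CD79A, a signalling chain of the B cell receptor, averaged 19.0 ± 2.02 CPM under bortezomib, 14.1 ± 3.51 CPM under elesclomol, 28.6 ± 7.46 CPM under the combination, 23.7 ± 8.85 CPM under the delayed combination and 11.8 ± 1.21 CPM under PBS (SD, n = 3 each). All 9 libraries of the groups that had bortezomib lay above all PBS libraries. Of all genes, 20.2%, 22.2% and 27.5% had groups without overlap in these 3 comparisons, in either direction. The 3 comparisons share the PBS libraries, and CD79A was not examined under the correction for GC content and length. The log2 changes of CD79A of 0.70, 1.30 and 1.02 in these 3 groups did not pass in edgeR (adjusted p 0.457, 0.159 and 0.301). FCRL5, a receptor-like surface protein of plasma cells, gave log2 changes of 0.27, -0.10, 0.83 and 0.82 in the order bortezomib, elesclomol, combination and delayed combination (adjusted p at least 0.36), and TFRC, the transferrin receptor, which also binds polymeric immunoglobulin A, gave 0.03, -0.19, 0.13 and 0.05. PIGR, the receptor that carries polymeric immunoglobulin A across epithelia, held 50 counts and FCAR, the receptor of immunoglobulin A on myeloid cells, 8 over all libraries. Of the 7 genes of this list 4 were tested and none passed.

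SDC1, CD38 and SLAMF7, surface proteins of plasma cells, gave log2 changes between -0.14 and 0.22 against PBS in all 4 treated groups, and none of the 8 tested genes of their list passed. ELL2, an elongation factor that favours the secreted form of immunoglobulin heavy chain RNA, averaged 252 CPM and gave log2 changes between -0.08 and 0.09. HNRNPF gave 0.25, 0.08, 0.08 and 0.24 and SMG1, a kinase of nonsense-mediated decay, gave -0.22, 0.01, -0.34 and -0.30, and none of the 9 genes of that list passed. Among the secretion partners, chosen after its values were seen, SYVN1, a ubiquitin ligase of the endoplasmic reticulum, had the smallest p of its list under the combination (log2 change 0.58 ± 0.12, SE, edgeR adjusted p = 0.158). SYVN1 lay above PBS without overlap in all 4 treated groups. In each of these comparisons 19.8% to 27.5% of all genes had groups without overlap, in either direction. The 4 comparisons share the PBS libraries, which lay below all treated libraries on the GC axis. SYVN1 was not examined under the correction for GC content and length.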
